A study of Mus musculus with 5 samples.

Results

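The subject is a list of 39 genes for chemokines, cytokines, their receptors and the effectors of inflammation in the mouse knee joint, chosen by name. Of the 39 genes, 35 had a probe set annotated to them alone on the arrays, out of 12393 genes in all, and each was read from its brightest probe set. Ccl19 and Ccl21a had only probe sets shared with other genes, and Ptgs1 and Nfkb1 had none in the annotation used here. Joints of double-null mice, which lack both epiphycan (Epyc) and biglycan (Bgn), were compared with joints of wildtype mice. Both groups were males of a C57/Bl6:129 hybrid background aged 3 months. Each array held RNA of whole tibio-femoral joints pooled from 3 mice (6 joints), with 3 double-null pools and 2 wildtype pools. The sources used here do not say how the null alleles were made or whether the wildtype mice were littermates.

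Chemokines are small secreted proteins that draw leukocytes into tissue along a gradient. The CC and CXC families are named for the spacing of their conserved cysteines. Interleukin 1 (IL-1) and tumour necrosis factor (TNF) act on receptors that release the transcription factor NF-kB from its inhibitor IkB-alpha, and NF-kB in turn drives many chemokine, cytokine and adhesion genes. In joints these signals act on synovial fibroblasts, chondrocytes and marrow cells, and they lead to prostaglandins, nitric oxide and matrix-degrading enzymes. Soluble biglycan is known in mouse macrophages as a ligand of Toll-like receptors 2 and 4, which use the same NF-kB route.

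The 5 arrays were split over 2 deposited tables of 22690 probe sets each, which belong to 2 platform records. Whether the arrays or a batch differ between them is not stated. Table A held double-null pool 3 and wildtype pool 2, and table B held double-null pools 1 and 2 and wildtype pool 1. Signals were scaled array by array, with a 2% trimmed mean of 250 on each, and the ratio of 3' to 5' Gapdh signal lay between 0.888 and 1.04 in double-null pools and between 0.849 and 1.03 in wildtype pools. Bgn was reduced on each of its 3 probe sets. The brightest read 45.8, 7.05 and 9.92 in double-null pools, against 4063 and 2356 in wildtype pools (log2 fold change -6.00, limma adjusted p = 0.0047 over 22626 probe sets). Epyc read 10.8, 3.38 and 1.29 in double-null pools, against 91.2 and 78.8 in wildtype pools (-1.65, limma adjusted p = 0.16, from 0.077 to 0.96 over its alternatives). All 3 double-null values of Epyc were within the background controls, so the size depends on the constant added to the signal, with -0.67 for the largest and -4.24 for the smallest. Where these probe sets lie relative to the deletions is unknown here. The measured markers of bone, cartilage, synovium and muscle, among them Col1a1, Col2a1, Prg4 and Acta1, were above the background of every array.

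None of the inflammation genes passed the test between double-null and wildtype joints. The intensity filter was passed by 18 of the 35 (51.4%), against 60% of all genes, so 17 were too dim for it. Of the 18, 0 reached an adjusted p under 0.05 (limma), where 0.121% of all 7436 genes tested did, and the lowest adjusted p among the 18 was 0.66. In the fit of all 12393 genes without the filter, 0 of the 35 passed, where 0.0161% of all genes did. At an unadjusted p under 0.05 there was 1 of 18 (5.56%), against 6.17% of all genes tested, and 2 of 35 (5.71%) without the filter, against 5.80% of all genes. Each log2 fold change sets double-null over wildtype pools after adding 32 to the signal, which understates changes of dim genes, with table as a term in the model. The 35 values had a median of 0.028, with 19 positive and 16 negative, against a median of -0.012 over all genes. Their interquartile range lay between -0.14 and 0.14, and that of all genes between -0.15 and 0.13. Of 11 inflammation genes with more than 1 probe set, 6 had probe sets with values of opposite sign. In Il1rn and Il6ra the positive values were only 0.006 and 0.015, and the share over all genes is not given here.

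The intervals show what the 5 arrays could resolve. The 95% intervals of the 35 log2 fold changes reached from 0.32 to 0.78 to either side, with a median of 0.46. A missed threshold therefore does not show that a gene was equal in the groups. Over the 35 genes the intervals spanned values from -1.06 (Ccl2) to 1.27 (Tnfaip6). In whole joints fewer cells of a type and less RNA per cell cannot be told apart.

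**Figure D1:**
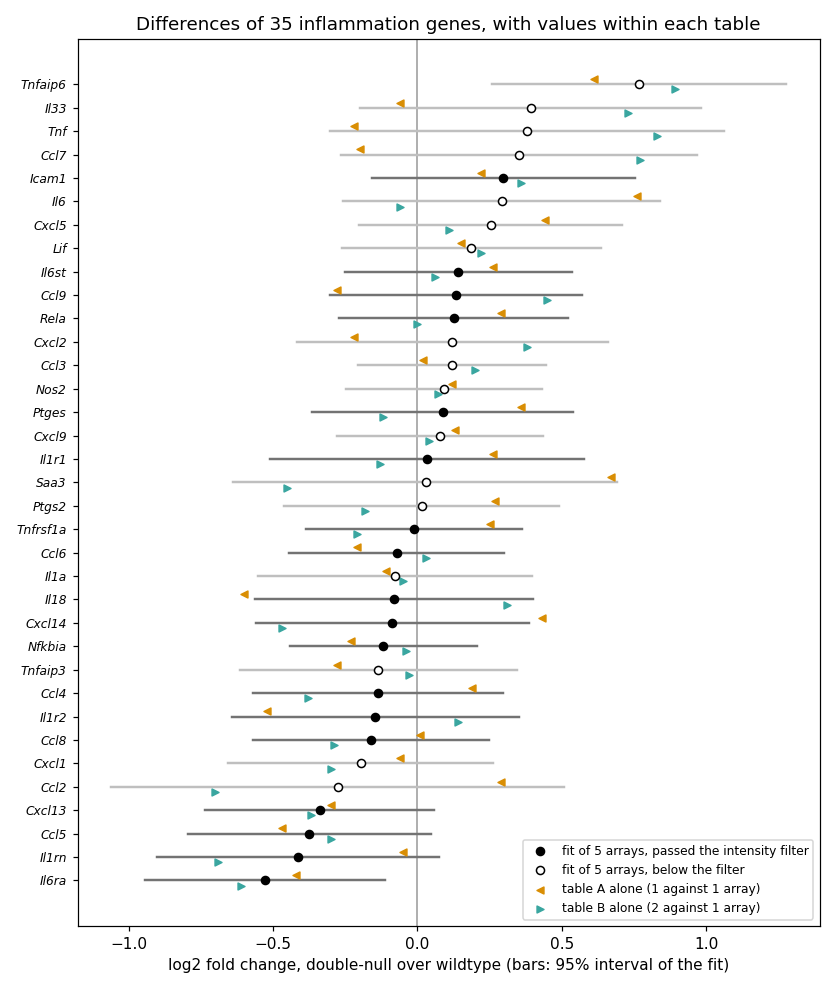
Log2 fold changes (double-null over wildtype) of 35 inflammation genes in order of size, with 95% intervals, filled circles for genes above the intensity filter and open circles for genes below it. Triangles give the differences within table A and within table B. Tnfaip6 at 0.77 and Il6ra at -0.53 are the ends, and their intervals alone do not cross 0.

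The genes nearest to a difference were Tnfaip6 on the higher side and Il6ra, Ccl5 and Cxcl13 on the lower side. On the normalised scale every double-null pool lay above both wildtype pools for 3 of 35 genes (8.57%), Tnfaip6, Icam1 and Cxcl5, where 8.92% of all 12393 genes did so. Every double-null pool lay below both wildtype pools for 3 genes (8.57%), Il6ra, Ccl5 and Cxcl13, where 10.8% of all genes did so. In the deposited signals the counts were 2 above (all genes 7.56%) and 3 below (all genes 11.8%), since Cxcl5 overlapped there. The separated genes were thus no larger a share of the list than of all genes. With 3 pools against 2, an exact permutation test of 1 gene cannot go below 0.1.

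Many of the classical inflammatory messages were near the background of the arrays. Background was read from the 27 probe sets for Bacillus genes, spike-in controls that mouse RNA should not bind. Their highest value per array lay between 27.5 and 63.5 in double-null pools and was 38.5 and 36.3 in wildtype pools. Of the 35 genes, 20 (57.1%) were above the highest control of the array on all 5 arrays, against 68.8% of all genes. Another 5 (14.3%), the chemokine genes Ccl3, Cxcl1, Cxcl2 and Cxcl9 and the nitric oxide synthase gene Nos2, were above it on no array, against 11.5% of all genes. The other 10 were above it on some arrays. Il1a was above it on all but double-null pool 2, and Tnfaip6 on all but wildtype pool 2. Ccl2, Cxcl5 and Saa3 were each above it in double-null pools 1 and 3 and wildtype pool 1, and Ptgs2 in double-null pool 3 and both wildtype pools. Ccl7 and Tnf were above it in double-null pool 1 only, and Il6 and Lif in double-null pool 3 only. The control level of double-null pool 2, 63.5, came from a single probe set, with the next at 19.4. For genes with all values of a group within the controls the log2 values are fitted values and no fold.

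**Figure D2:**
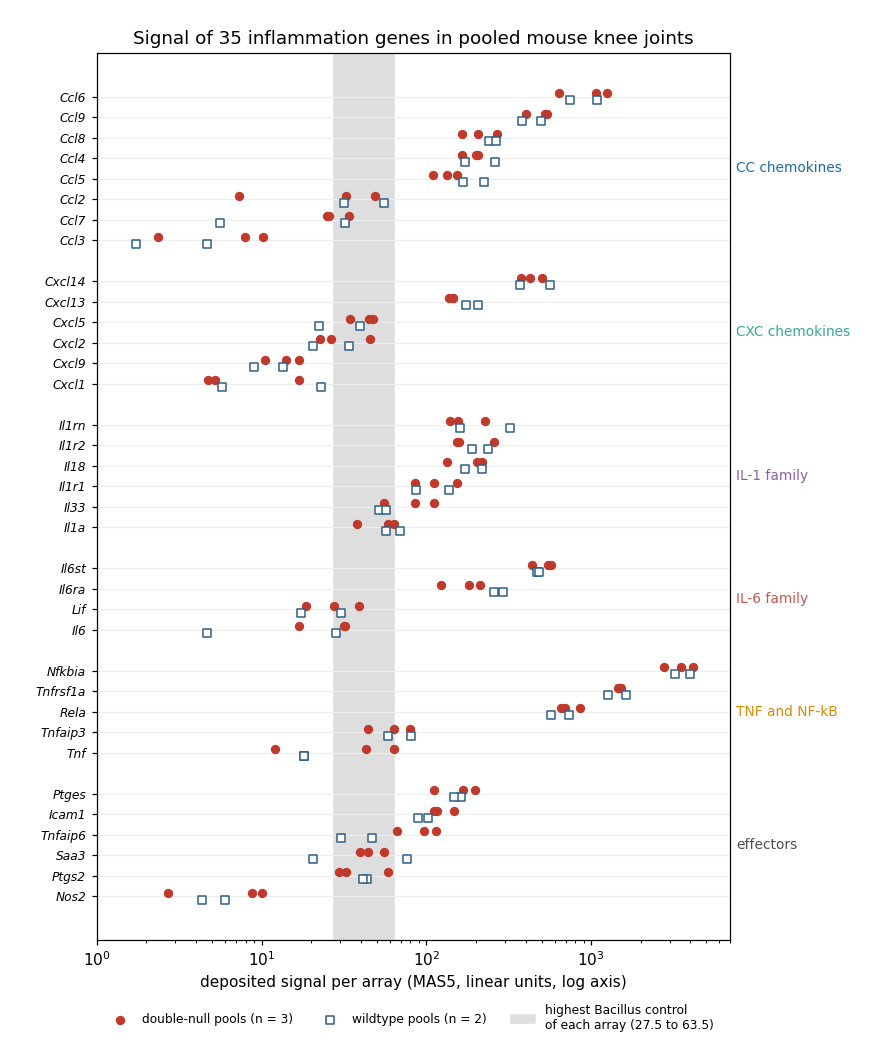
Deposited signal (linear units on a log axis) of 35 inflammation genes by role, with red circles for 3 double-null pools and open blue squares for 2 wildtype pools. The grey band spans the highest Bacillus control of each array, 27.5 to 63.5. Nfkbia lies furthest right, at 2775 to 4155, while Nos2, Cxcl1, Ccl3 and Cxcl9 lie left of the band in every pool.

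Among the CC chemokine genes Ccl6 and Ccl9 were far above the controls on every array. Signals of different probe sets depend on their probes and are not compared as amounts. Ccl6, a myeloid chemokine of rodents, read 1250, 1077 and 637 in double-null pools, against 1089 and 741 in wildtype pools. The pools of table A were the low ones in both groups, and the groups overlapped. A second Ccl6 probe set read 561, 426 and 262 in double-null pools, against 288 and 288 in wildtype pools. It overlapped too, at 0.35, where the brightest was at -0.072. Ccl9, another rodent chemokine of myeloid cells and osteoclasts, read 538, 522 and 400 in double-null pools, against 379 and 496 in wildtype pools, and the groups overlapped. Its second probe set also overlapped, at -0.095, where the brightest was at 0.134. Summed signals of macrophage markers ran from 13540 to 18755 in double-null pools and from 13478 to 19773 in wildtype pools. Lyz2 alone, at 8808 to 12922 and 8622 to 13936, was the larger part of each sum. On the normalised scale 2 of the 8 markers, Cd14 and Mrc1, were higher in every double-null pool (all genes 8.92%). Their log2 values were 0.49 and 0.43 (limma adjusted p = 0.79 and 0.77). Lower in every double-null pool were 0 of the 8 (all genes 10.8%). Summed signals of neutrophil lineage markers ran from 87551 to 124161 in double-null pools and from 89080 to 141477 in wildtype pools. Both sums overlapped. On the normalised scale 3 of the 9 neutrophil markers, Elane, Mpo and Lcn2, were lower in every double-null pool (all genes 10.8%). Their log2 values were -0.32, -0.08 and -0.17 (limma adjusted p = 0.74, 0.99 and 0.90). Higher in every double-null pool were 0 of the 9 (all genes 8.92%), and 8 of the 9 had negative log2 values. The part of macrophages and neutrophils in the Ccl6 and Ccl9 values was not tested. All 8 macrophage markers and all 9 measured neutrophil markers were above the controls on every array.

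Ccl5, also called RANTES, draws T cells and monocytes. It read 134, 110 and 154 in double-null pools, against 166 and 223 in wildtype pools, so every double-null pool lay below both wildtype pools. Its log2 fold change was -0.37 ± 0.19 (SE), with limma unadjusted p = 0.077 and adjusted p = 0.85, which ran from 0.70 to 1 over 16 alternative settings. The difference was -0.47 in table A and -0.30 in table B. Summed signals of the 8 T and NK cell markers were 704 to 903 in double-null pools and 891 to 1039 in wildtype pools. Nkg7 alone, at 479 to 606 and 538 to 750, was the larger part of each sum and overlapped. Only Nkg7 and Gzma of that list were above the controls on every array, Cd3e and Cd4 on none, and the part of these cells in the Ccl5 values was not tested.

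The other CC chemokine genes overlapped between the groups. Ccl8, a monocyte chemoattractant, read 165 to 268 in double-null pools and 239 to 266 in wildtype pools. Ccl4, a chemokine of activated leukocytes, read 164 to 207 in double-null pools and 171 to 261 in wildtype pools. Ccl2, the main monocyte chemoattractant, was dim, at 32.6, 7.32 and 48.6 in double-null pools, against 55.7 and 31.7 in wildtype pools. Ccl7 read 25 to 33.9 in double-null pools and 5.57 to 32.3 in wildtype pools, and Ccl3 did not exceed 10.2 in any pool. On their brightest probe sets 3 of the 8 measured CC chemokine genes had positive and 5 negative log2 values, between -0.37 and 0.35. The second probe sets of Ccl6 and Ccl9 had the opposite sign.

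Lymphoid chemokines are represented by Cxcl13 and, through shared probe sets, by the Ccl19 and Ccl21 groups. Cxcl13, which draws B cells to follicles, read 145, 146 and 137 in double-null pools, against 207 and 174 in wildtype pools, so the groups did not overlap. Its log2 fold change was -0.34 ± 0.18 (limma unadjusted p = 0.088, adjusted p = 0.86, from 0.61 to 1 over 16 alternatives), with -0.30 in table A and -0.37 in table B. A second, dimmer probe set of Cxcl13 read 22.7, 48.9 and 58.6 in double-null pools, against 66.0 and 32.5 in wildtype pools, and overlapped (-0.08). Summed signals of the 6 measured B cell lineage markers were 1904 to 2564 in double-null pools and 2537 to 2763 in wildtype pools. Among them Pax5 was above the controls on no array, and the part of B cells in the Cxcl13 values was not tested.

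The probe set that holds Ccl21a is annotated to 9 gene entries of the Ccl21 group and names no single gene. It read 217, 156 and 192 in double-null pools, against 99.7 and 137 in wildtype pools, and every double-null pool lay above both wildtype pools. The differences were 0.41 in table A and 0.78 in table B, given as values with no test. The probe set that holds Ccl19 is annotated to 10 entries and read 85.4, 88.0 and 98.2 in double-null pools, against 101 and 84.0 in wildtype pools, so the groups overlapped.

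Among the other CXC chemokine genes only Cxcl14 was above the controls in every pool. Cxcl14, a chemokine of epithelial and stromal cells, read 428, 375 and 502 in double-null pools, against 565 and 370 in wildtype pools. The groups overlapped, and the direction differed between the tables, at 0.43 in table A and -0.47 in table B. A second Cxcl14 probe set overlapped too, at 0.162, where the brightest was at -0.087. Cxcl5, a neutrophil chemoattractant, read 34.4, 47.2 and 44.7 in double-null pools, against 39.6 and 22.2 in wildtype pools. Its groups were apart on the normalised scale only (log2 fold change 0.25 ± 0.19, limma unadjusted p = 0.23, adjusted p = 0.92 in the fit of all genes), and the deposited signals overlapped. The neutrophil chemoattractant genes Cxcl1 and Cxcl2 stayed at or below 45.8, and the interferon-induced Cxcl9 at or below 16.9, in every pool.

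The IL-1 family members were mostly measurable, and their groups overlapped. Il1rn, the gene of the IL-1 receptor antagonist, read 139, 227 and 156 in double-null pools, against 321 and 159 in wildtype pools. Its value of -0.41 ± 0.22 (limma unadjusted p = 0.088, adjusted p = 0.86, from 0.47 to 1 over 16 alternatives) was -0.05 in table A, which is also the value without wildtype pool 1, and -0.69 in table B. Its 2 other probe sets were at -0.004 and 0.006. Il1r1, the signalling receptor, read 154, 85.4 and 111 in double-null pools, against 137 and 86.2 in wildtype pools. Il1r2, the decoy receptor, read 154, 259 and 158 in double-null pools, against 189 and 237 in wildtype pools. Both receptors overlapped between the groups.

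The 3 IL-1 family cytokine genes of the list overlapped as well. Il18, whose product is activated by caspase 1, read 204, 217 and 134 in double-null pools, against 171 and 217 in wildtype pools. It was lower in the double-null pool of table A (-0.60) and higher in those of table B (0.31). Il33, an alarmin of stromal and endothelial cells, read 85.0, 111 and 55.0 in double-null pools, against 51.9 and 56.5 in wildtype pools. Double-null pools 1 and 2 were the high ones, and pool 3 lay between the wildtype pools. Il1a, a cytokine released by damaged cells, read 38.2 to 63.4 in double-null pools and 56.6 to 69.3 in wildtype pools.

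The IL-6 receptor chain gene Il6ra gave the lowest value of the list. Its product binds IL-6 and pairs with gp130, the signalling chain encoded by Il6st. The brightest Il6ra probe set read 123, 182 and 212 in double-null pools, against 257 and 292 in wildtype pools, so the groups did not overlap. The log2 fold change was -0.53 ± 0.19 (95% interval -0.94 to -0.11, limma unadjusted p = 0.017, adjusted p = 0.66, from 0.37 to 1 over 16 alternatives), with -0.42 in table A and -0.61 in table B. The second Il6ra probe set, also above the controls on every array, read 118, 179 and 196 in double-null pools, against 168 and 173 in wildtype pools. It overlapped, at 0.015, so the lower value of Il6ra belongs to 1 of its 2 probe sets, and the mean over both gave -0.26.

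Il6st read 545, 437 and 572 in double-null pools, against 467 and 481 in wildtype pools, and overlapped. Its log2 fold change was 0.14, and its other 2 probe sets were at 0.27 and 0.36. Il6 itself, the cytokine, read 16.9, 31.5 and 32.2 in double-null pools, against 28.3 and 4.68 in wildtype pools, with 1 value of 5 above the controls. Lif, a cytokine of the same family, read 18.7 to 39.0 in double-null pools and 17.3 to 30.3 in wildtype pools.

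In the TNF and NF-kB group 4 of the 5 measured genes were above the controls on every array, and Tnf was not. Nfkbia, which encodes IkB-alpha, is itself a target of NF-kB and serves as its feedback inhibitor. It read 3495, 4155 and 2775 in double-null pools, against 3991 and 3210 in wildtype pools, and overlapped (log2 fold change -0.12, 95% interval -0.44 to 0.21). Its 3 other probe sets also overlapped, with values of -0.10, -0.26 and -0.29. Rela, the p65 subunit of NF-kB, read 854, 660 and 698 in double-null pools, against 732 and 573 in wildtype pools. Tnfrsf1a, the main TNF receptor, read 1527, 1456 and 1476 in double-null pools, against 1617 and 1261 in wildtype pools. Both overlapped, and Tnfrsf1a had the value nearest to 0 of the list (-0.013).

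Tnf read 63.5, 43.0 and 12.1 in double-null pools, against 18.2 and 18.0 in wildtype pools. Only the value of double-null pool 1 was above the controls of its array, and double-null pool 3 was the lowest of the 5. Both wildtype values were within the controls, so no fold is given. Tnfaip3, the gene of the ubiquitin-editing inhibitor A20 and another NF-kB target, read 63.9, 79.5 and 44.2 in double-null pools, against 80.9 and 58.7 in wildtype pools, and overlapped.

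The promoters of 4 of these genes are shown because the same NF-kB motif stands in front of Nfkbia, far above background in these joints, and of 3 genes at or near background. The sequences are 300-base windows (250 bases before to 50 after the gene start) from RefSeq on GRCm38.p6, 5' to 3' on the gene's strand, with matches to the kB consensus motif on either strand in capitals. Windows were found for 32 of the 39 genes.
Nfkbia (chr12:55492598-55492897, strand -): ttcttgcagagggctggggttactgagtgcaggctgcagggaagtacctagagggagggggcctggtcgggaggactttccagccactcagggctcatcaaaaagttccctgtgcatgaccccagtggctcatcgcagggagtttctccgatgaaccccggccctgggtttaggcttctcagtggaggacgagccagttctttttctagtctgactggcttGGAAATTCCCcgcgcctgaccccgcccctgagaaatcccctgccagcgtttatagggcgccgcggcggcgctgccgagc
Il6 (chr5:30012864-30013163, strand +): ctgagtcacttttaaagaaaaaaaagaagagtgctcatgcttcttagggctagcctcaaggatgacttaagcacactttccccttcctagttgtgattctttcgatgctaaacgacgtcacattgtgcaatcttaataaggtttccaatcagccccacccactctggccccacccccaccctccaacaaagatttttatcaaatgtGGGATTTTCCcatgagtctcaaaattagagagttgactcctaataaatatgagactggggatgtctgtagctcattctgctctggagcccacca
Cxcl1 (chr5:90890995-90891294, strand +): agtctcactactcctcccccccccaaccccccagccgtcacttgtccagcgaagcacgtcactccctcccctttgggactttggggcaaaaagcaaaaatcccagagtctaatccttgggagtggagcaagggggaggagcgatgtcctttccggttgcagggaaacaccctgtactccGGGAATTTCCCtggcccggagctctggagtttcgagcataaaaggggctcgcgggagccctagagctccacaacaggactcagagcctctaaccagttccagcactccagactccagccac
Cxcl2 (chr5:90903649-90903948, strand +): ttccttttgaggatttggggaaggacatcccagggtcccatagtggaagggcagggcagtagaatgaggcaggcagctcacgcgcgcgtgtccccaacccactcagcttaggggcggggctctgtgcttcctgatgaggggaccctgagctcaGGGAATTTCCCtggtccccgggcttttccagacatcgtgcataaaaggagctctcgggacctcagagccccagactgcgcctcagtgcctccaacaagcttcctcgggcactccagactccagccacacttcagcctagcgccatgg

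In Nfkbia the match begins 29 bases before the gene start, and in Il6 44 bases before it. In Cxcl1 and Cxcl2 there are 2 overlapping matches, 1 on each strand, that make up the same run of letters in both genes. Of the 32 genes with a window, 7 (21.9%) held a match, against 5.14% of all 27025 genes with a window. The other 3, not shown, were Ccl9, Il1r1 and Tnfaip3, each above the controls on every array. The windows of Tnfaip6, Icam1, Il6ra and Cxcl13 did not hold these letters. A match describes the letters and does not show that NF-kB binds there. Beside these sequences stand signals of 2775 to 4155 for the brightest Nfkbia probe set in all pools. Il6 was at most 32.2, Cxcl1 at most 23.1 and Cxcl2 at most 45.8. The other Nfkbia probe sets read 849 to 1134, 380 to 709 and 156 to 355, above the controls on every array. As signals of different probe sets, these are not compared as amounts.

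The effector with the highest value of the list was Tnfaip6. Its product, TSG-6, binds hyaluronan and is induced by TNF and IL-1 in synovial cells and chondrocytes. It read 114, 96.4 and 66.0 in double-null pools, against 46.9 and 30.5 in wildtype pools, so every double-null pool lay above both wildtype pools. The log2 fold change was 0.77 ± 0.21 (1.70-fold, 95% interval 0.26 to 1.27), with 0.61 in table A and 0.89 in table B. Tnfaip6 lay below the intensity filter, and in the fit of all genes it had limma unadjusted p = 0.0091 and adjusted p = 0.68, from 0.52 to 1 over 16 alternatives. Only 1 of its 2 wildtype values was above the controls, and the log2 value ran from 0.38 with the largest constant added to the signal to 1.17 with the smallest.

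Icam1, the endothelial and fibroblast adhesion molecule that leukocytes bind, read 148, 116 and 111 in double-null pools, against 103 and 88.9 in wildtype pools. The groups did not overlap, and the gap between double-null pool 3 and wildtype pool 1 was small. The log2 fold change was 0.30 ± 0.21 (limma unadjusted p = 0.18, adjusted p = 0.91, from 0.67 to 1 over 16 alternatives), with 0.22 in table A and 0.36 in table B. Endothelial markers summed to 608 to 852 in double-null pools and 692 in both wildtype pools. The 6 synovial and fibrous tissue markers (Prg4, Pdpn, Thy1, Pdgfra, Dcn and Col3a1) summed to 22375 to 22895 in double-null pools and 11406 to 16958 in wildtype pools. Col3a1 alone read 9252, 8153 and 10072 in double-null pools, against 3656 and 3221 in wildtype pools. The signals of Prg4 and Dcn, the other bright markers in the sum, overlapped. On the normalised scale 5 of the 6 were higher in every double-null pool (all genes 8.92%). All 6 had positive log2 fold changes, and Col3a1, type III collagen, was past the threshold (1.46, limma adjusted p = 0.0028). That call was lost in the fit of all genes without the filter (limma adjusted p = 0.24). The part of these cells in the Tnfaip6 and Icam1 values was not tested.

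**Figure D3:**
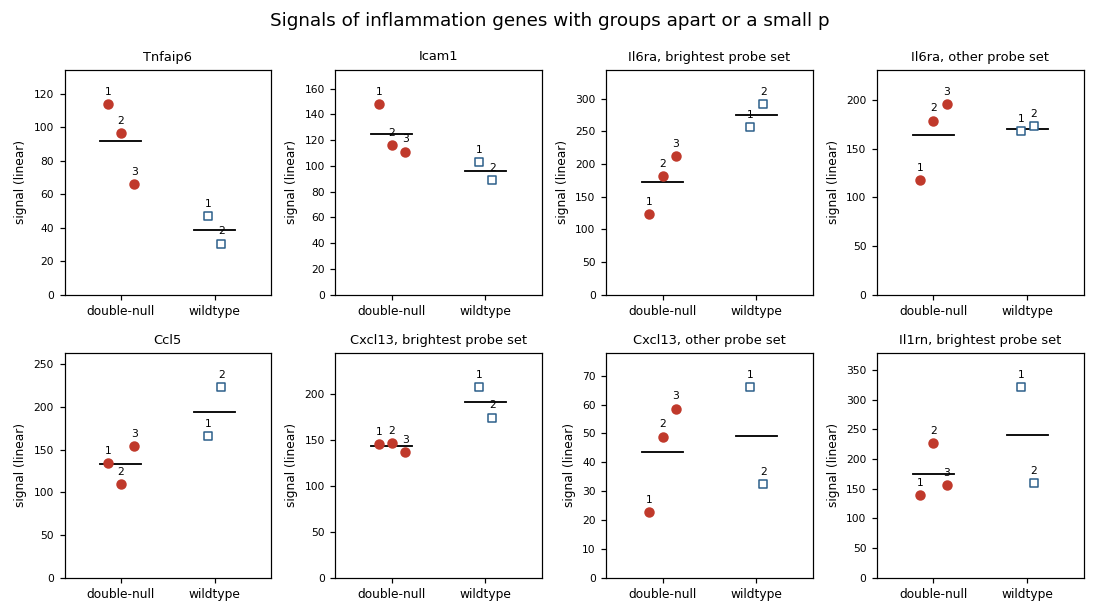
Signal per pool (linear, axis from 0) of Tnfaip6, Icam1, Il6ra, Ccl5, Cxcl13 and Il1rn, double-null pools as red circles on the left and wildtype pools as blue squares on the right, with pool numbers and the mean as a bar. The groups are apart for Tnfaip6, Icam1, Ccl5 and the brightest probe sets of Il6ra and Cxcl13, and overlap in the other probe sets and in Il1rn.

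The other effectors overlapped between the groups. Ptges, the inducible prostaglandin E synthase, read 112, 168 and 198 in double-null pools, against 162 and 148 in wildtype pools. Its second, dimmer probe set was at -0.175, where the brightest was at 0.087. Ptgs2, the inducible cyclooxygenase, read 29.3, 32.4 and 58.8 in double-null pools, against 43.5 and 41.3 in wildtype pools. Saa3, an acute phase protein of inflamed tissue, read 39.3, 44.3 and 55.2 in double-null pools, against 76.2 and 20.6 in wildtype pools, which held both the highest and the lowest value. Nos2, the inducible nitric oxide synthase, was at most 10 in double-null pools and at most 6 in wildtype pools. On their brightest probe sets all 6 measured effectors had positive values with quantile normalisation and with median centring, and 4 of 6 with the deposited scaling. With quantile normalisation 5890 of all 12393 genes were positive. Over the 16 alternatives the sign turned in 6 for Ptgs2, in 5 for Ptges and in 5 for Saa3. The alternatives include table B alone and the omission of either array of table A, which give the same contrast. In table B Ptgs2 was at -0.18, Ptges at -0.12 and Saa3 at -0.45, against 0.27, 0.36 and 0.67 in table A.

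The 2 tables gave separate comparisons, with no array in common. Of the 35 genes 17 (48.6%) had the same sign in both, against 48.3% of all 12393 genes. Tnfaip6, Il6ra, Ccl5, Cxcl13, Icam1 and Cxcl5 were among the 17. Their groups were apart on the normalised scale, which by itself fixes the same sign in both tables. Opposite signs with the smallest unadjusted p for a difference between the tables were seen for Il18 (-0.60 in table A and 0.31 in table B), Saa3 (0.67 in table A and -0.45 in table B) and Cxcl14 (0.43 in table A and -0.47 in table B), with limma interaction adjusted p of 0.79, 0.80 and 0.79. None passed adjustment (0 of 35, and 0% of all genes), and 3 of 35 (8.57%) had an unadjusted p under 0.05, against 6.13% of all genes and 6.32% of those that passed the filter. With 1 residual degree of freedom this test leans on the spread of other genes.

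**Figure D4:**
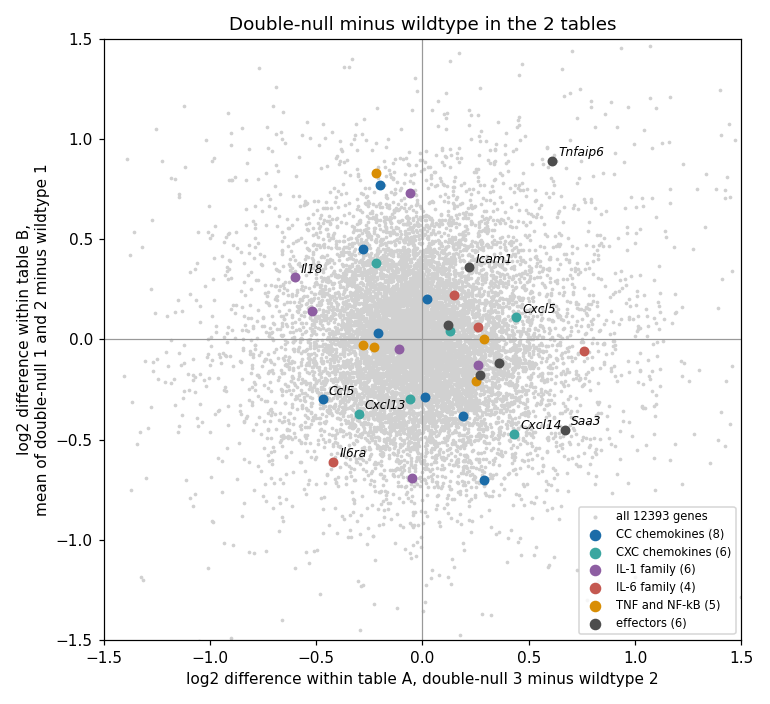
Log2 difference (double-null minus wildtype) within table A on the x axis and within table B on the y axis, with 12393 genes in grey (42 lie outside the axes) and 35 inflammation genes coloured by role. Tnfaip6 lies in the upper right at 0.61 and 0.89 and Il6ra in the lower left at -0.42 and -0.61, while Saa3, Cxcl14 and Il18 lie in the quadrants of opposite sign.

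Other genes of the same pathways were read from 5 further lists, and 0 of their members passed over all genes, where 0.121% of all genes tested did. Positive values numbered 8 of 21 chemokine receptors, 9 of 19 further chemokines, 8 of 17 IL-1 and IL-6 signalling genes, 9 of 19 NF-kB genes and 6 of 14 prostaglandin and leukotriene genes. The list medians lay between -0.06 and -0.01, against -0.01 over all genes. Chemokine receptors had 21 measured and 10 above the filter. Among them Ackr3, an atypical receptor that scavenges CXCL12, read 365, 413 and 320 in double-null pools, against 238 and 187 in wildtype pools, with no overlap. Its log2 fold change was 0.68, with 0.71 in table A and 0.66 in table B (limma unadjusted p = 0.002, adjusted p = 0.28). Of the further chemokines 19 were measured and 5 passed the filter. Cxcl16, a transmembrane chemokine of myeloid cells, read 83, 140 and 92.1 in double-null pools, against 176 and 161 in wildtype pools, with no overlap (-0.56, limma adjusted p = 0.71). The platelet chemokine genes Pf4 and Ppbp were bright, at 4098 to 4824 and 6091 to 7376 in double-null pools, against 3630 to 4899 and 5640 to 6874 in wildtype pools, and overlapped.

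In IL-1 and IL-6 family signalling 17 further genes were measured and 13 passed the filter. Osmr, the oncostatin M receptor that pairs with gp130, read 255, 268 and 209 in double-null pools, against 157 and 181 in wildtype pools, and did not overlap (0.47, limma adjusted p = 0.73). Socs3, the feedback inhibitor of gp130 signalling, read 189, 291 and 186 in double-null pools, against 122 and 180 in wildtype pools (0.51, adjusted p = 0.81), with 0.04 in table A and 0.86 in table B. Il1rap, the accessory chain of the IL-1 receptor, averaged 97 ± 39 in double-null pools (SD, n = 3) and 159 ± 43.2 in wildtype pools (SD, n = 2). Every double-null pool lay below both wildtype pools (-0.54, limma adjusted p = 0.83). Its difference was -0.02 in table A and -0.93 in table B. Of 19 further NF-kB pathway genes measured, 15 passed the filter. None of the 15 had an unadjusted p under 0.05, where 6.17% of all genes tested did, so a count of 0 in a list of this size says little. Relb of the same list, named here after its values were seen, lay below the filter and had an unadjusted p of 0.002 in the fit of all genes (limma adjusted p = 0.54). Nfkb2, the p100 precursor, read 158, 114 and 155 in double-null pools, against 167 and 210 in wildtype pools (-0.28, limma adjusted p = 0.93). Of 14 prostaglandin and leukotriene genes 9 passed the filter. Hpgd, which degrades prostaglandins, read 246, 304 and 262 in double-null pools, against 357 and 374 in wildtype pools, with no overlap (-0.39, limma adjusted p = 0.81).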

How the data were processed

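RNA of whole tibio-femoral joints was hybridised to 5 Affymetrix arrays, in 2 tables. The values are linear signal intensities per probe set, made by the authors with MAS5, per the submitters' processing notes. No source used here gives the MAS5 version or its scaling target.

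A constant of 32 was added before taking log2, and the 5 arrays were then quantile normalised. Of 22690 probe sets, 20393 had 1 gene symbol, 691 had several and 1606 had none. In all, 20364 were matched by Entrez number to GRCm38.p6 names, and the brightest probe set stood for each of 12393 genes. The 7436 genes above the 40th percentile (signal near 98.5) were tested with limma 3.58.1 in R 4.3.3 (lmFit, eBayes with trend, two-sided, table as a term, 2 residual and 9.68 prior degrees of freedom). P-values were adjusted by Benjamini-Hochberg over all genes tested, with a threshold of 0.05. Genes below the filter were read from the same fit of all 12393 genes. The code was tested on simulated data.

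The genes and lists were chosen with earlier results of these data known. All 35 genes with a probe set of their own are accounted for, with statistics for those with groups apart or the smallest p. From each other list up to 3 genes that passed the filter, with the smallest p, were eligible to be named. The alternatives were other scalings, pseudocounts, filters, terms, probe-set rules and the omission of each array. The replicate numbers of the labels were not taken as pairs.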

Additional observations from a re-analysis of the deposited data

How the results depend on the processing

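No inflammation gene in the test passed the threshold in any alternative, with limma adjusted p no lower than 0.37. The intensity filter left 18 of the 35 in the test, 8 with the filter at the 60th percentile and 35 without a filter. The median log2 fold change of the 35 ran from -0.025 to 0.061. Of the 35, 15 kept 1 sign under all 16 alternatives while 20 changed sign in at least 1. Table B alone and the omission of either array of table A are among the 16 and give the same contrast. The 15 that kept 1 sign were Tnfaip6, Il6ra, Ccl5, Cxcl13, Icam1, Cxcl5 and Il1rn, with Ccl3, Cxcl1, Cxcl9, Il1a, Il6st, Lif, Rela and Nos2. All of the former but Il1rn had groups apart on the normalised scale. Omitting an array, table B alone or leaving out the table term could not turn their sign. The count of 20 genes above the Bacillus controls on every array was 23 against the 2nd highest control, 15 against 2 times the highest and 20 with any probe set of the gene.

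Over all genes, 9 passed, against 5 with the deposited scaling, 2 without the filter, 4 without the table term, 2 on table B alone and 5 without the intensity trend. Without single pools the count ran from 2 to 52, at 25 without double-null pool 1, 52 when pool 2 of that group was omitted and 2 when its pool 3 was, and at 3 without wildtype pool 1 and 2 without its pool 2. On table B alone no Bgn probe set passed (-3.72, -6.08 and -5.30). Without single pools the 3 Bgn values ran from -3.72 to -3.15, from -6.28 to -5.70 and from -5.58 to -5.30, and none passed when pool 3 of the double-null group or either wildtype pool was omitted. The cause was not tested, and all 3 passed when double-null pool 1 or 2 was omitted. Omitting either array of table A leaves the contrast of table B, and omitting wildtype pool 1 leaves that of table A, 1 array against 1. The probe sets of Bgn were fitted 1 by 1 without a filter, so the filters and the mean over probe sets give no value for them.

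Wildtype and double-null pools share the numbers 1 and 2. With the replicate number as a block, 2 genes passed over all genes and 0 of the 18 inflammation genes tested. The median of the 35 was 0.044, and the least reduced Bgn probe set was at -3.39 and missed the threshold (limma adjusted p = 0.15). Deviations of same-numbered pools correlated at 0 and -0.18 across genes. With 2 wildtype pools these values cannot show whether same-numbered pools were paired. Both pools numbered 1 were in table B, and the pools numbered 2 were in different tables. The constant of 32 compresses the differences of dim genes, and 15 of the 35 were not above the controls on every array.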

Other observations

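Relb, the NF-kB subunit of the noncanonical pathway, was singled out after its values were seen. Its signal was 42.2, 41.7 and 46.0 in the double-null pools, against 11.9 and 9.51 in the wildtype pools. It lay below the intensity filter, and both wildtype values and that of double-null pool 2 were within the Bacillus controls of their arrays. In the fit of all genes Relb had a fitted log2 difference of 0.84 (limma unadjusted p = 0.002, adjusted p = 0.54), with 0.85 in table A and 0.83 in table B.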
